A study of Mus musculus with 99 samples.

Results

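Of the 3941 RING1B loci of mouse embryonic stem cells (ESCs), 1206 (30.6%) still carried a JARID2 peak after RING1B had been deleted. A RING1B locus is here a RING1B peak of RING1B WT cells treated with OHT, and a locus was counted as keeping JARID2 when it shared at least 1 bp with a JARID2 peak of Parental cells after 72 h of OHT. The 1206 loci were therefore chosen by these 2 peak lists, and the 2735 other RING1B loci served as the comparison. The cells of all antibody libraries carried the genotype ROSA26::creERT2 RING1A-/-; RING1B fl/fl, in which 0.5 µM 4-hydroxytamoxifen (OHT) makes Cre delete both Ring1b alleles, and ethanol (EtOH) was the vehicle of the cells without OHT. Parental cells had no further change, and RING1B WT and RING1B I53S cells were clones, selected with puromycin, that stably expressed FLAG-HA-tagged wild-type RING1B or the catalytically inactive I53S mutant from a pCAG vector. In MTF2 KO cells Mtf2 had been knocked out in each of the 3 lines, and Eed fl/fl cells were another ROSA26::creERT2 ESC line in which OHT deletes Eed. OHT was given for 48 h or 72 h, all lines grew in 2i/LIF medium with serum, and peaks were called against input of E14, a separate ESC line. The study lists 2 clones of the Eed fl/fl line, and which clone gave which library was not given in the sources used here.

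Polycomb repressive complex 1 (PRC1) holds RING1A or RING1B, the E3 ligases that monoubiquitinate histone H2A (H2AK119ub1). Polycomb repressive complex 2 (PRC2), built on EZH1 or EZH2, EED and SUZ12, methylates histone H3 (H3K27me3). PRC2 comes as PRC2.1, with MTF2 or another Polycomb-like protein and EPOP or PALI, and as PRC2.2, with JARID2 and AEBP2. JARID2 can bind H2AK119ub1 directly, MTF2 binds unmethylated CpG-rich DNA, and in ESCs both complexes sit at CpG islands of silent developmental genes.

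Sequence at some of the loci is shown to make the CpG content and the motifs given below visible. The windows are 200 bp long, hold no annotated exon, are taken from GRCm38 (mm10), are on the + strand, and have each CpG in capitals. Neurod2 (a neural bHLH transcription factor), Hoxb5/Hoxb6 (positional homeobox genes) and Uncx (a homeobox gene of the somites) are the 3 loci whose lowest JARID2 score over 4 OHT libraries (Parental at 48 h and 72 h, both RING1B I53S libraries at 72 h) was highest, leaving aside the loci set apart below. For the last 2, the window under the JARID2 peak is followed by one of the same locus outside it, and Cops7a, a COP9 signalosome subunit gene, is the locus with the highest RING1B score among those without any JARID2 peak in untreated cells.
Neurod2 under the JARID2 peak, chr11:98328345-98328544: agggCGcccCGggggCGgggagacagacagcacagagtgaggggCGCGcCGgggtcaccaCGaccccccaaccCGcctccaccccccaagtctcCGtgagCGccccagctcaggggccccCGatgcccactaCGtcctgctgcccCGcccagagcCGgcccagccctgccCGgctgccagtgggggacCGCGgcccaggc
Hoxb5/Hoxb6 under the JARID2 peak, chr11:96298865-96299064: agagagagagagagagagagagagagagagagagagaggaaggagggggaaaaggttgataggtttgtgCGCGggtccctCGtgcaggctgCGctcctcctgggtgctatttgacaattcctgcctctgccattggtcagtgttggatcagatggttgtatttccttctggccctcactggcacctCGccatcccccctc
Hoxb5/Hoxb6 outside it, chr11:96303134-96303333: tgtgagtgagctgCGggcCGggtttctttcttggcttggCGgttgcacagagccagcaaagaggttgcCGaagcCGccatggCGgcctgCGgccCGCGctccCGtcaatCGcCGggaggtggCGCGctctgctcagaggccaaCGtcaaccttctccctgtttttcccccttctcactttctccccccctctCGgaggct
Uncx under the JARID2 peak, chr5:139546444-139546643: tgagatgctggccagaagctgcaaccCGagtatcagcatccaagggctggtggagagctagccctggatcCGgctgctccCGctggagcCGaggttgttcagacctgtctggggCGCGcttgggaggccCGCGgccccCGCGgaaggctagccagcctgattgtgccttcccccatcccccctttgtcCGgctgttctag
Uncx outside it, chr5:139545271-139545470: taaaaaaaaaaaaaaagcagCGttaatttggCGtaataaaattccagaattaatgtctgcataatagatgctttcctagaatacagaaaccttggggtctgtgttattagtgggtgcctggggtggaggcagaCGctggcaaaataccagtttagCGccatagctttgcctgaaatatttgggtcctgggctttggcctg
Cops7a, another RING1B locus, chr6:124964960-124965159: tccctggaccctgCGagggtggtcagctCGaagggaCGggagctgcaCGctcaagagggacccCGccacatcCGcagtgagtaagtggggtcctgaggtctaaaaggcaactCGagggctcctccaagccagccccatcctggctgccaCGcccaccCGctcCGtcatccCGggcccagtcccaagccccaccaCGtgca
The Neurod2 window holds 17 CpG. At Uncx the window under the JARID2 peak holds 11 CpG and the one outside 4, whereas at Hoxb5/Hoxb6 the order is the other way round, with 5 CpG and a GAGAGAGA repeat under the peak and 16 CpG outside. The Cops7a window holds 12 CpG and the E-box CACGTG.

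Each of 74 ChIP-seq libraries, 70 with 12 antibodies and 4 inputs, was available as a list of peaks, each scored by its −log10 p against input, with no score under 10. The lists hold no read counts, so depth, signal and spike-in scaling are unknown, a locus without a peak is one below the peak caller's limit, and a share of occupied loci is no level of binding. Conditions had 1 library per antibody, except for 2 libraries each of JARID2 and MTF2 in the RING1B WT and RING1B I53S lines at 72 h of OHT, so no test between conditions was run on them, and intervals are 95% intervals that cover counting over loci only. The 16 RNA-seq libraries, 2 per group, held 6957248 to 12743460 counted reads. Nothing in the labels says that the 2 came from separate cultures, so p-values measure the spread between these samples, which may be technical.

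Among the members, 11 stood apart: 8 lay under a peak of an input library (against 1 of the other loci), and 3 lay at Gm42418 on chromosome 17 under a single JARID2 peak, which scored 128163 in untreated Parental cells and 53311 at 72 h of OHT. Its score was 7987 or more in all 11 JARID2 libraries. No input peak lay on these 3 loci, and what the signal there comes from was not tested. Results below are given for all 1206 members, and leaving these 11 out moved the EPOP difference from 57.6 to 57.9 percentage points, the RING1B difference from −2.70 to −3.23 and none of the gene counts, whereas it turned the AEBP2 difference, as given in its place.

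Of the 1404 JARID2 peaks of Parental cells at 72 h of OHT, 1298 (92.5%) lay on RING1B loci. Membership rose with the size of the locus. Members had a median RING1B peak of 2018 bp and a RING1B score of 65.2, against 1030 bp and 18.1 at the other loci, which describes the peaks that the rule started from and is no finding. Of loci shorter than 800 bp 7.90% kept JARID2, and of those of 3000 bp or longer 71.4% did. By RING1B score, the share went from 5.70% in the band from 10 to 15 through 15.8% and 37.7% to 75.3% at 60 or more. The weakest overlap inside the rule was 23 bp, at Chrdl2 (a BMP antagonist gene, chr7:100005214-100006638), followed by 150 bp at Myo18a, and the nearest misses were 268 bp at the imprinted growth factor adaptor gene Grb10, 394 bp at the homeobox gene Evx2 and 430 bp at Dlx4. For 252 members the JARID2 score was below 12, near the lower limit of the list, and with a minimum score of 20 the rule left 438 members.

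**Figure D1:**
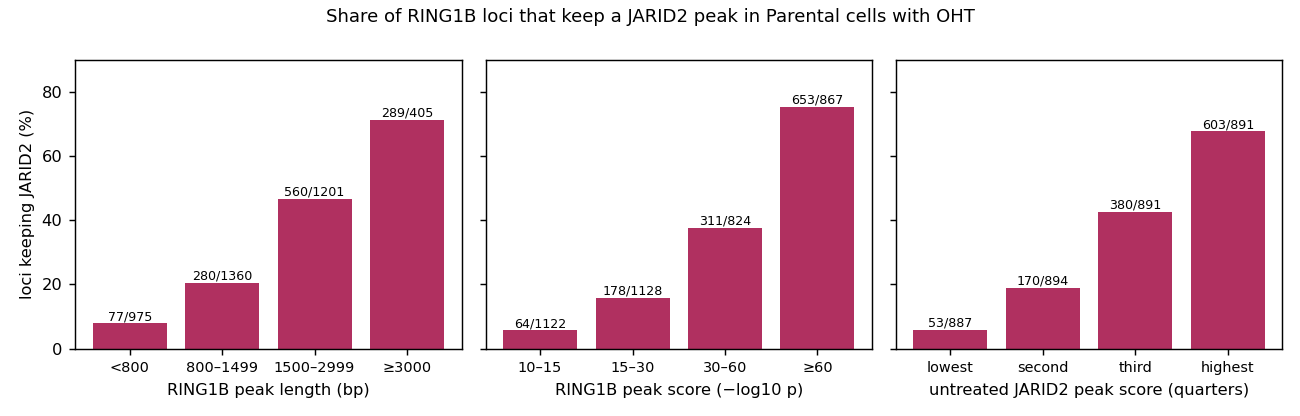
Share of RING1B loci that keep a JARID2 peak in Parental cells at 72 h of OHT (y axis, percent), by RING1B peak length, RING1B peak score and JARID2 score in untreated Parental cells; numbers above the bars are loci keeping JARID2 over all loci of the band. The share climbs from the first to the last bar of each panel, from 7.90% to 71.4%, 5.70% to 75.3% and 5.98% to 67.7%.

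Before RING1B loss, JARID2 sat at nearly all RING1B loci and the members were the ones with the highest scores. In untreated Parental cells 3563 of the 3941 loci had a JARID2 peak, among them all 1206 members and 2357 (86.2%) of the others. The highest JARID2 peak on a locus had a median score of 1164 at members and of 396 at the others. Of these loci with an untreated score up to 288, 5.98% were members, of those from there to 558 19.0%, of those from there to 1165 42.6%, and of those above that 67.7%. Even so, 288 loci of the highest group had no JARID2 peak left at 72 h, and 53 of the lowest still had one.

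JARID2 peaks shrank at the members as well. At 48 h of OHT 2489 loci had a JARID2 peak, of which 1197 were members, so that 99.3% of the members and 47.2% of the other loci were occupied. The JARID2 peaks on members had a median score of 1095 without OHT, 44.8 at 48 h and 16.3 at 72 h, and their median length went from 4811 bp through 1979 bp to 1130 bp. In RING1B WT cells the corresponding medians of the score were 333 without OHT, 203 at 48 h and 269 and 221 in the 2 libraries at 72 h. Scores depend on the depth of each library, which is unknown.

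RING1B I53S cells gave a second view of the same antibody in libraries that the rule had not used. At 72 h of OHT, JARID2 peaks covered 61.2% of the members and 7.97% of the other loci in library 1, a difference of 53.2 percentage points (95% interval 50.2 to 56.1). In library 2 the shares were 30.02% and 0.585%, a difference of 29.4 points (26.9 to 32.1), and at 48 h the shares were 66.5% and 7.42%. The 2 libraries of this condition therefore differed widely from each other, with 1080 and 446 peaks in all. Of all loci with a JARID2 peak in these libraries, 77.2%, 95.8% and 79.8% were members. Within loci with a RING1B score of at least 60, the differences at 72 h were 31.4 and 43.9 points. In untreated RING1B I53S cells 99.6% of the members and 81.3% of the others had JARID2, and in RING1B WT cells at 72 h of OHT 99.9% and 99.7% of the members did, with 82.3% and 80.8% of the others.

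Leaving aside the loci set apart, Neurod2 had the highest JARID2 score at 72 h of OHT. At Neurod2 (chr11:98326580-98329655, holding its start site) the score was 5053 in untreated Parental cells, 491 at 48 h and 160 at 72 h. In RING1B I53S cells it was 2101 without OHT, 269 at 48 h and 212 and 80.8 in the 2 libraries at 72 h. In RING1B WT cells it stayed between 1338 and 2088 in all 4 libraries, above every OHT value of the other lines. Barx2 (chr9:31913041-31915994), a homeobox gene of muscle and epidermis, had scores of 2793, 314 and 114 in Parental cells and of 89.4 and 41.2 in RING1B I53S cells at 72 h. The 11699 bp locus over Hoxb5, Hoxb5os and Hoxb6 (chr11:96294289-96305987) went from 3717 through 148 to 51.8 in Parental cells and had 71.2 and 49.6 in RING1B I53S cells. Uncx (chr5:139543011-139550079) went from 3056 through 202 to 68.7, with 80.6 and 48.9 in RING1B I53S cells. Kcnk9, which encodes a potassium leak channel, scored 84.9 in Parental cells at 72 h, Crhr1, the receptor for corticotropin-releasing hormone, 75.2, Car10, a carbonic anhydrase-related protein, 71.3, and Plxna4, a semaphorin receptor, 69.4. Pcdh7 (a protocadherin) with 68.1, Skor1 (a corepressor of dorsal neurons) with 65.3, the noncoding Gm28756/Gm45784 with 64.4 and the forkhead gene Foxb1 with 43.6 completed the loci named by rank, of which each one held an annotated start site. Gm10717 on chromosome 9, with 71.4, lay under a peak of all 4 inputs.

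**Figure D2:**
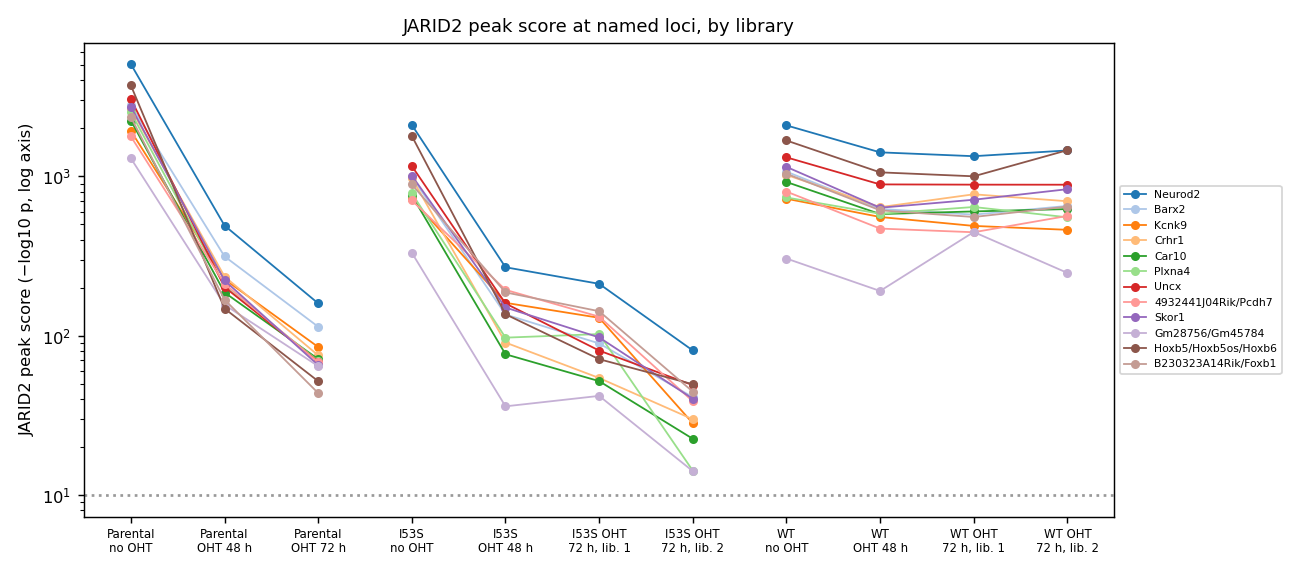
JARID2 peak score (y axis, −log10 p, log axis) at 12 loci named by rank, with one line per locus and one point per library (x axis), the dotted line marking the lower limit of the lists at 10. Neurod2 falls from 5053 to 160 in Parental cells, while in RING1B WT cells it stays at 1338 or above.

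Most members still had a peak of the PRC2.1 subunits MTF2 and EPOP with OHT. In Parental cells at 72 h of OHT, MTF2 covered 99.3% of the members and 72.2% of the others, a difference of 27.1 points (25.3 to 28.8). EPOP covered 88.0% and 30.4%, a difference of 57.6 points (54.9 to 59.97). SUZ12, the core subunit shared by both complexes, covered 99.4% and 70.2%, a difference of 29.3 points (27.5 to 31.0). Without OHT all 3 stood at 99.3% to 99.7% of the members and 82.3% to 88.1% of the others, so the gap between the 2 groups was wider with OHT. The median MTF2 score on the members was 68.0 with OHT and 1285 without, and at the others 25.7 and 498.

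Because the members had the higher RING1B scores, the same shares were read within RING1B score bands. Scores can still differ between the groups within a band. The highest band has no upper limit, and scores reached 334 at members and 193 at the others. From the lowest to the highest band the MTF2 difference was 44.3, 19.5, 7.42 and 1.72 points (0.374 to 4.56 in the last). The SUZ12 difference was 53.7, 19.3, 6.57 and 0.467 points, the last with an interval from −0.233 to 2.60, in a band where SUZ12 was at 99.5% of the other loci too. EPOP still differed by 36.5 points (29.8 to 43.4), with 94.5% of 653 members and 57.9% of 214 other loci. In the lowest band, from 10 to 15, EPOP covered 82.8% of 64 members and 17.1% of 1058 others.

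AEBP2, the other PRC2.2 subunit, was hardly detected with OHT. AEBP2 peaks covered 58.5% of the members and 17.2% of the others in untreated Parental cells and 61.4% and 18.5% in RING1B WT cells with OHT. With OHT, 0.415% of the members (5 loci) and 0.0366% of the others had AEBP2 in Parental cells, and 0.663% and 0.219% in RING1B I53S cells. Without the 11 loci set apart, no member had an AEBP2 peak in Parental cells with OHT, and the difference turned to −0.0366 points (−0.207 to 0.285). The whole AEBP2 list of that library held 14 peaks, so a lack of peaks there is not a lack of AEBP2.

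H3K27me3 covered 95.7% of the members and 54.8% of the others in Parental cells at 72 h of OHT, a difference of 40.9 points (38.7 to 43.0), which in the 4 RING1B score bands, from the lowest, was 56.2, 28.9, 16.4 and 6.87 points (3.74 to 11.3 in the last). All of MTF2, EPOP, SUZ12 and H3K27me3 were present at 1031 members (85.5%) and at 711 other loci (26.0%). In RING1B I53S cells with OHT, H3K27me3 was found at 76.4% of the members and 28.5% of the others and SUZ12 at 90.6% and 41.1%.

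**Figure D3:**
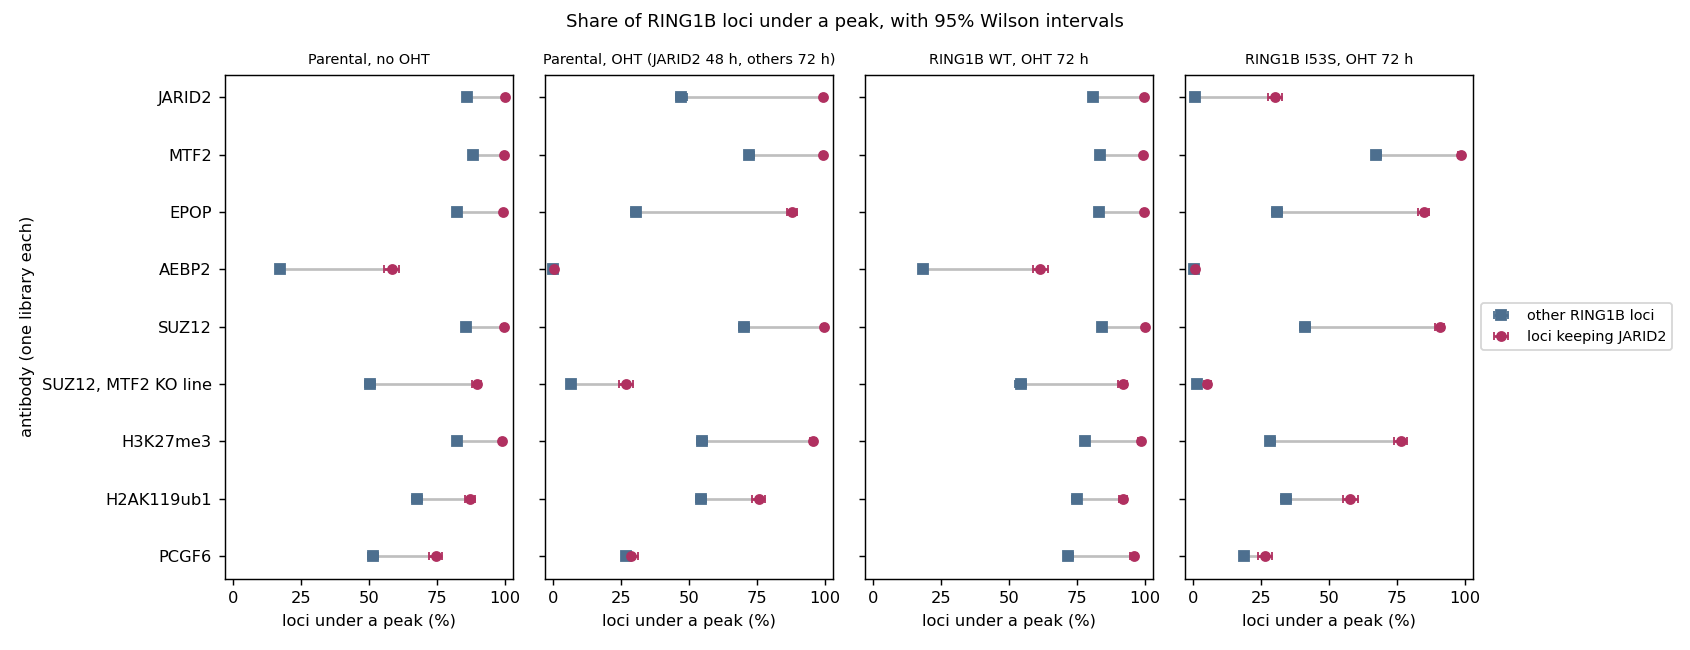
Share of the 1206 loci keeping JARID2 (circles) and of the 2735 other RING1B loci (squares) under a peak (x axis, percent) for each antibody (y axis), in 4 conditions, with 95% Wilson intervals; each point is one library, with JARID2 of Parental cells with OHT at 48 h and library 2 for JARID2 and MTF2 where there are 2 libraries. In the Parental panel with OHT, EPOP covers 88.0% of the loci keeping JARID2 and 30.4% of the others, whereas AEBP2 is below 1% at both.

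H2AK119ub1 peaks were called at 75.6% of the members and 54.3% of the others in Parental cells at 72 h of OHT, and at 57.7% and 34.1% in RING1B I53S cells. Without OHT the shares were 87.2% and 67.6%. These lists say where the antibody signal passed the limit against input and not how much of the mark was left, since the spike-in scaling made for the histone marks is not part of a peak list. Within RING1B score bands the difference between members and others was not detectable in most: it was 3.45 points (−1.33 to 9.15) at scores of 60 or more, −4.18 points (−10.9 to 2.39) from 30 to 60 and −6.28 points (−14.2 to 1.60) from 15 to 30, and 16.2 points (3.76 to 28.2) from 10 to 15. By untreated JARID2 score it was 34.9 points (28.6 to 41.1) above 1165. In the bands below, from the lowest, it was 9.23 (−4.43 to 20.1), −4.07 (−12.4 to 4.12) and 1.53 points (−4.86 to 7.83). By length it was 16.2 points (9.57 to 24.4) at loci of 3000 bp or longer and 7.48 points (2.58 to 12.3) from 1500 to 3000 bp. It was 2.02 points (−4.54 to 8.47) from 800 to 1500 bp and 4.51 points (−6.52 to 16.1) below 800 bp.

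RING1B itself was nearly gone from the members. In Parental cells with OHT, RING1B peaks covered 16 members (1.33%) and 4.02% of the others, a difference of −2.70 points (−3.65 to −1.64). Among loci with a JARID2 peak in untreated cells the difference was 0.436 points (−0.255 to 1.31), so no difference was detectable there. Canonical PRC1, marked by the chromodomain protein CBX7 and by PCGF2, was at 98.9% and 99.8% of the members without OHT and at 3.48% and 1.41% with OHT in Parental cells. In RING1B I53S cells PCGF2 peaks remained at 36.6% of the members and 3.40% of the others. The variant PRC1 subunit RYBP covered 50.7% of the members and 30.3% of the others without OHT, and with OHT 30.8% and 14.95% in RING1B WT cells and 17.2% and 6.98% in RING1B I53S cells.

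PCGF6, the defining subunit of the variant complex PRC1.6, showed no detectable difference over all loci in Parental cells with OHT. In the other conditions it was more frequent at the members. It covered 74.6% of them and 51.4% of the others in untreated Parental cells. With OHT the shares were 95.9% and 71.7% in RING1B WT cells and 26.5% and 18.6% in RING1B I53S cells. In Parental cells with OHT it covered 28.5% of the members and 26.9% of the others, a difference of 1.61 points with an interval from −1.39 to 4.69. Read within RING1B score bands it was less frequent at the members from 15 to 30 (16.3% against 30.8%, difference −14.6 points, −20.1 to −7.79) and from 30 to 60 (23.8% against 32.7%, difference −8.95 points, −15.02 to −2.57). From 10 to 15 (−4.89, −11.4 to 5.61) and at 60 or more (−6.84, −14.4 to 0.605) the interval held 0. Above an untreated JARID2 score of 1165 PCGF6 was more frequent at the members, with 34.3% against 21.2%. In each lower JARID2 band the interval held 0. By length the difference was −11.1 points (−17.9 to −1.21) below 800 bp and −7.51 (−12.6 to −1.79) from 800 to 1500 bp. It was 2.92 (−2.21 to 8.07) from 1500 to 3000 bp and 10.5 (0.307 to 19.6) at 3000 bp or longer. The direction thus differed between bands of length as well as between the measures used for banding.

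In the MTF2 KO lines SUZ12 was also more frequent at the members. Without OHT it covered 89.6% of the members and 50.4% of the others in Parental MTF2 KO cells, and with OHT 91.8% and 54.2% in RING1B WT MTF2 KO cells. With OHT it covered 26.9% of the members and 6.51% of the others in Parental MTF2 KO cells, a difference of 20.4 points (17.7 to 23.1). At RING1B scores of 60 or more the difference was 24.5 points (18.7 to 29.4). In RING1B I53S MTF2 KO cells the shares were 5.22% and 1.54%. H3K27me3 in Parental MTF2 KO cells was at 57.1% of the members without OHT and at 3.90% with it.

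The members were no uniform group. Counting the 3 RING1B I53S libraries with OHT (1 at 48 h, 2 at 72 h), JARID2 peaks were in none at 303 members, in 1 at 240, in 2 at 327 and in 3 at 336, whereas 2401 of the 2735 other loci had none and 8 had all 3. From the first to the last of these 4 classes the median length went from 1343 bp to 3026 bp and the median RING1B score from 30.1 to 120. MTF2 stayed between 97.6% and 100.0%, while EPOP in Parental cells with OHT went from 71.3% to 97.0% and H2AK119ub1 from 54.5% to 93.5%. SUZ12 in Parental MTF2 KO cells with OHT went from 14.5% to 47.6%, AEBP2 in untreated cells from 26.1% to 88.1%, and PCGF2 in RING1B I53S cells with OHT from 1.98% to 81.3%. CpG density went the other way, from 6.52 to 5.69 per 100 bp. Locus length and RING1B score moved with these classes, and their part in the shares was not tested.

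**Figure D4:**
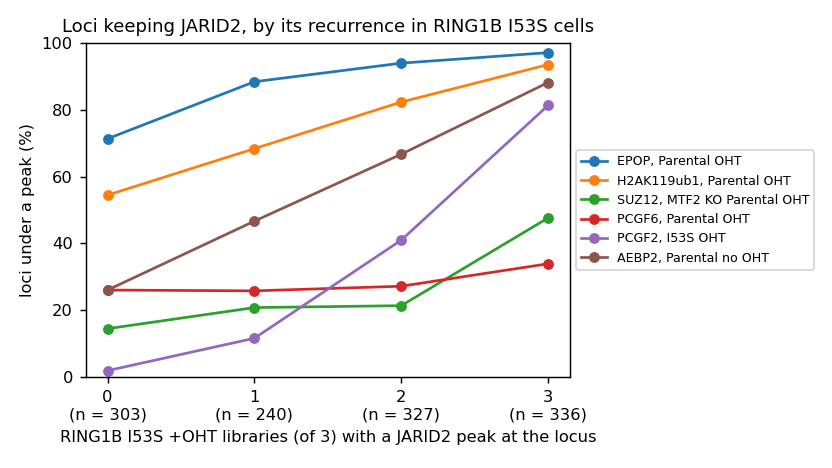
Share of loci keeping JARID2 that lie under a peak of each antibody (y axis, percent) by the number of RING1B I53S +OHT libraries, of 3, that also have a JARID2 peak there (x axis, number of loci in brackets). PCGF2 in RING1B I53S cells climbs from 1.98% to 81.3%, while PCGF6 in Parental cells goes from 26.1% to 33.9%.

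The members lay mostly on promoters. Of the 1206, 929 (77.0%) held an annotated start site, against 57.1% of the others (difference 19.9 points, 16.8 to 22.9), 140 more lay within 2.5 kb of one, 68 in exons, 21 in introns and 48 between genes. Chromosome 11 held 180 members among its 708 loci (25.4%), chromosome 17 held 56 of 138 (40.6%), and chromosome X held 4 of 78 (5.13%).

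By base composition the 2 groups were close. GC content had a median of 60.5% at members and 61.8% at the others, the ratio of observed to expected CpG 0.684 and 0.667, and CpG density 6.19 and 6.30 per 100 bp. Within members, the part under the JARID2 peak of Parental cells with OHT had a median of 7.18 CpG per 100 bp. The part outside had 4.01, over the 1005 members with at least 200 bp of each. More CpG lay under the peak in 835 of them. This peak list is one that chose the members, and the other loci have no such peak to compare. The central 300 bp was also denser than the whole locus in both groups, with medians of 8.0 at members and 7.33 at the others. Its part in the order was not tested. The Uncx windows above show more CpG under the peak in single stretches, and the Hoxb5/Hoxb6 windows show the opposite order.

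The letters of 3 motifs, none of which holds another, were searched on both strands in the central 300 bp of each locus. The E-box CACGTG, bound by MGA and other bHLH proteins, was in 4.06% of the members and 8.48% of the others, a difference of −4.42 points (−5.89 to −2.81), and 7.15% of 32851 RefSeq promoters of GRCm38 of the same length held it. GCGGGAA, the E2F6-type site, was in 7.38% and 9.54%, against 4.60% of these promoters. GAGAGAGA was in 4.15% and 3.44%, with 3.93% of promoters. A match is only a match of letters, and the Hoxb5/Hoxb6 and Cops7a windows above show the last and the first.

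Genes with a start site within 2.5 kb of a member had low levels in untreated cells, and 42.7% of them rose with OHT in Parental cells. There were 1392 such genes in the count table, 875 of them with enough reads for the test and 42 without a single read in any library. In untreated Parental cells their median level was 0.0352 CPM (library-scaled counts) per kb of exon, against 0.298 for the 2504 genes at other loci only, and 89.4% against 67.1% were below 1. In Parental cells OHT raised 595 of the 1392 genes (42.7%) and lowered 4, by edgeR's quasi-likelihood test at a log2 fold change of 1.5 or more in size and an adjusted p below 0.05, while over all 18154 genes tested 15.1% were called higher and 1.83% lower. Of the genes at other loci only, 825 of 2504 (32.9%) were higher. Counting tested genes alone, 68.0% at members and 45.4% at other loci were higher. The median log2 fold change over the tested genes was 2.74 at members, 1.40 at the other loci and 0.03 over all genes; it leaves out the 517 genes at members with too few reads. Among genes below 1 CPM per kb in untreated cells, 565 of 1244 at members (45.4%, 95% interval 42.7 to 48.2) and 674 of 1681 at other loci (40.1%, 37.8 to 42.5) were called higher.

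In RING1B I53S cells 575 genes at members were higher with OHT and 2 lower, against 12.8% and 1.04% of all genes, and 531 of the 575 (92.3%) were also among the 595 of Parental cells (89.2% of those). In RING1B WT cells 44 of the 875 tested genes (5.03%) were higher and 0 lower, against 1.34% and 0.0386% of all genes, all 44 among the 595. Of the tested genes at other loci 4.95% were higher, close to the share at members. At an unadjusted p under 0.05, 278 of the 875 genes at members and 547 of the 1818 at other loci differed in RING1B WT cells, which are close shares. DESeq2 called 50 genes at members higher there. The WT count rested on single libraries: without replicate 2 of the untreated group it was 4, and without replicate 2 of the OHT group 7. The OHT effect of Parental cells exceeded that of RING1B WT cells at 63 of the 875 genes and was below it at 0, against 1.10% and 0.435% of all genes. That of RING1B I53S cells was called different from Parental at 0 of the 875, with 67 at an unadjusted p under 0.05. For this last test no share over all genes is given, so its counts show nothing particular to the members. In Eed fl/fl cells 40 of 967 tested genes at members and 152 of 1934 at other loci had an unadjusted p under 0.05. Of the 967, 0 were called in either direction and DESeq2 called 1 lower, against 0.00795% higher and 0.0% lower of 25170 genes tested. This count rested on the fit: with the replicate number as a block 5 genes were higher and 1 lower, and without replicate 2 of the untreated Eed fl/fl group 38 were higher. The 343 members with a JARID2 peak at 48 h and in both RING1B I53S libraries at 72 h had 429 genes. In Parental cells 201 of these (46.9%) were higher, against 42.7% of all genes at members. Among tested genes it was 78.2% of 257 against 68.0% of 875, with median log2 fold changes of 3.74 and 2.74. The difference was not tested.

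The deletion itself was only partly visible in the counts. Rnf2, which encodes RING1B, had 198 and 257 CPM in untreated Parental libraries and 144 and 167 with OHT (log2 fold change −0.55 ± 0.20 SE, adjusted p = 0.0346, below the fold threshold), and the gene-wide count includes exons outside the floxed part. Ring1 stood at 1.98 to 2.69 CPM in the untreated Parental libraries. Eed in Eed fl/fl cells went from 255 and 173 CPM to 67.1 and 43.7 (log2 fold change −1.95 ± 0.32, adjusted p = 0.0766).

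The Gata3 locus scored 11.6 for JARID2 in Parental cells at 72 h of OHT, near the lower limit of the list. A JARID2 peak was also there in all 3 RING1B I53S libraries with OHT. Gata3, a zinc finger factor of trophoblast and T cells, was the gene with the lowest p. It had 0.489 and 0.494 CPM in untreated Parental cells and 52.9 and 51.8 with OHT, 0.927 and 0.672 against 35.6 and 36.8 in RING1B I53S cells, 1.60 and 1.21 against 4.93 and 7.60 in RING1B WT cells, and 21.6 and 20.8 against 36.8 and 26.3 in Eed fl/fl cells. The OHT libraries lay above the untreated ones in all 4 lines. The log2 fold changes were 6.70 ± 0.36 (adjusted p = 7.02e-10), 5.46 ± 0.33 (6.94e-09), 2.13 ± 0.34 (0.00277) and 0.57 ± 0.26 (0.833).

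Ccnd2, which encodes the G1 cyclin D2, had 2.44 and 4.33 CPM in untreated Parental cells and 195 and 166 with OHT, a log2 fold change of 5.78 ± 0.34 (adjusted p = 1.12e-09). In RING1B WT cells it had 2.57 and 5.27 against 13.4 and 23.7 CPM, so its groups did not overlap there either (2.23 ± 0.33, adjusted p = 0.00193). Hand1, a bHLH factor of trophoblast giant cells and heart, had 0.244 and 0.247 against 20.9 and 20.6 CPM in Parental cells (6.33 ± 0.46, adjusted p = 1.43e-08). Nkx2-9, a homeobox gene of the ventral neural tube, had 0.163 and 0.124 against 13.7 and 16.8 CPM (6.58 ± 0.48), and Pitx1, a homeobox gene of the hindlimb, 0.0815 and 0.124 against 19.9 and 17.6 CPM (7.41 ± 0.64). Wnt3, the ligand needed to start the primitive streak, had 1.14 and 0.865 against 21.9 and 24.0 CPM (4.47 ± 0.40). Of the remaining genes with the 10 lowest p-values, Ecel1 (an endopeptidase of neurons) changed by 6.005, Nsg1 (a neuronal endosomal protein) by 5.09, Kcns1 (a silent potassium channel subunit) by 5.01 and Adra2b (an adrenergic receptor) by 4.09 on the log2 scale, each also called higher in RING1B I53S cells.

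**Figure D5:**
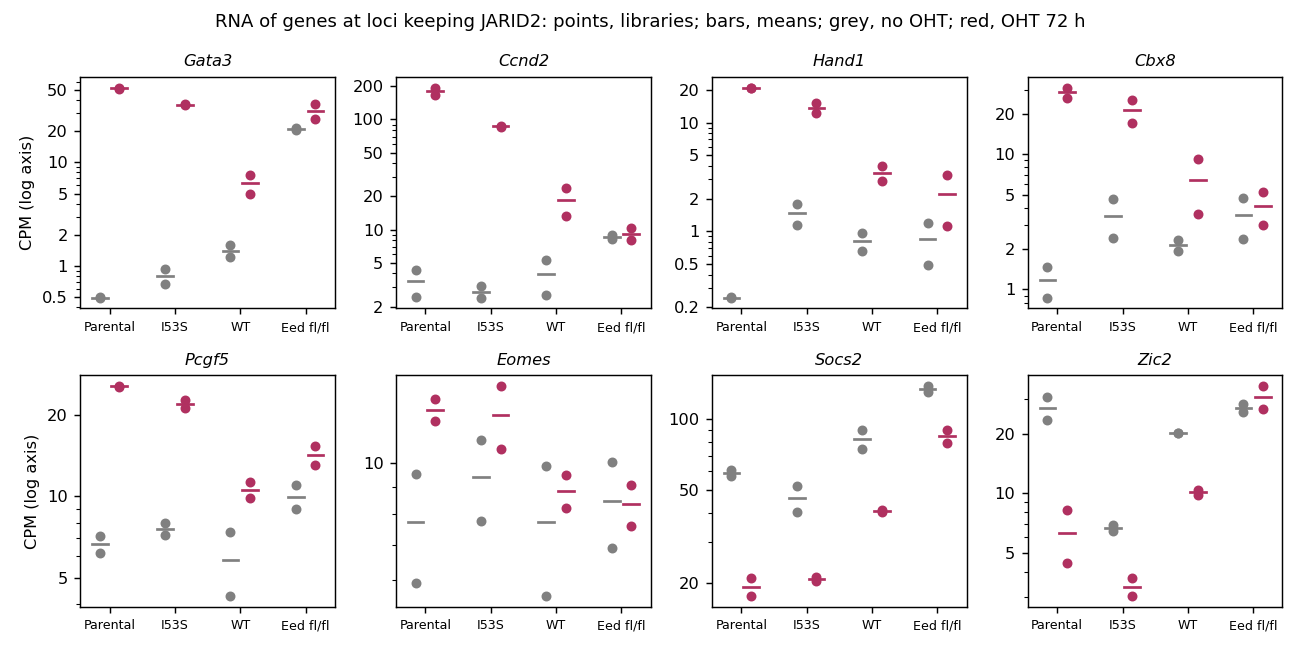
CPM (y axis, log axis) of 8 genes at loci keeping JARID2 in the 16 RNA-seq libraries; points are libraries, bars the mean of 2, grey without OHT and red with 72 h of OHT. Gata3 goes from 0.489 and 0.494 to 52.9 and 51.8 CPM in Parental cells, and Socs2 from 60.9 and 57.2 to 20.9 and 17.5.

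The family counts below can be read against the shares called higher in Parental cells: 68.0% of tested genes at members, 15.1% of all tested. For membership, 1392 genes in all lay at members and 2504 at other loci only. At other loci lay 3 Gata and T-box, 4 Pax list, 6 Sox, 5 forkhead and 8 Nkx to Irx genes of the lists below. So did 4 proneural bHLH, 3 Zic, Gli and Hedgehog, 17 Wnt pathway and 6 BMP, TGF-beta and FGF genes. No family was tested against the rest. Of 39 Hox genes, which pattern the body axis, 9 lay at members and 29 at other loci, and all 7 of the 9 with enough reads were higher in Parental cells with OHT, among them Hoxb7 (0.244 and 0 against 8.20 and 7.70 CPM), Hoxd13 and Hoxb6. In RING1B WT cells 0 of these 7 were called higher, yet their median log2 fold change was 3.37, against 6.74 in Parental cells. Hoxb1 had no read in untreated Parental cells and 106 with OHT, at least 34.1-fold higher counting 3 reads over the group as the floor. Of the 22 Gata and T-box genes, which specify endoderm, mesoderm and trophoblast, 13 lay at members and 10 of 11 tested were higher. Gata2 changed by 2.97 ± 0.36 and Gata4 by 2.51 ± 0.45, and Eomes did not pass the test, with 9.53 and 5.93 against 13.2 and 11.99 CPM (0.68 ± 0.32, adjusted p = 0.107).

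Of a list of Pax genes and other regulators of organs and the neural tube, 11 of 18 lay at members and 9 of the 11 were higher. Pax9 had 0 and 0.124 CPM without and 10.7 and 12.48 with OHT, Pax6 changed by 3.45 ± 0.56 and Pax8 by 1.66 ± 0.57 on the log2 scale. Of 13 Sox genes of the lineages 7 lay at members and 6 were higher: Sox9 went from 0.326 and 0.124 to 19.5 and 22.3 CPM, Sox6 changed by 2.88 ± 0.43, and Sox7 from no read to 120 reads, at least 39.6-fold. Sox21 did not pass the test (0.92 ± 0.45, adjusted p = 0.126). Of 24 forkhead genes 17 lay at members, and 10 of 11 tested were higher. Foxf1, a mesoderm regulator, went from no read to 177, at least 57.8-fold, Foxf2 to 63, at least 20.4-fold, and Foxj1 and Foxq1 changed by 1.95 ± 0.54 and 3.43 ± 0.998.

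Of the 41 Nkx, Lhx, Dlx, Msx and Irx genes, the homeobox factors of brain, face and limb, 31 lay at members and 21 of 25 tested were higher. Dlx3 went from 2.12 and 0.865 to 31.9 and 32.1 CPM and Msx1 from 0.489 and 0.247 to 12.7 and 8.29, while Lhx6 changed by 1.31 ± 0.33 and was not called in Parental cells. Of 19 proneural bHLH genes 11 lay at members, of which 6 were tested and 3 higher, among them Atoh1 (2.92 ± 1.005), whereas Neurog1, Bhlhe23 and Olig2 were not called, with log2 fold changes of 0.84, 2.00 and 0.68. Neurod2 is one of these 11 genes. Of the Zic, Gli and Hedgehog genes 7 of 14 lay at members, and of 5 tested 3 were higher and 1 lower. Zic1 went from no read to 111, at least 37.4-fold, and Dhh, a Hedgehog ligand, changed by 4.56 ± 0.84, while Ptch1, the Hedgehog receptor, changed by −0.55 ± 0.21 and was not called.

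Among signals, 14 of 37 Wnt pathway genes lay at members and 11 of 14 were higher, with Wnt16 at 4.12 ± 0.56 and the receptor Fzd2 at 2.94 ± 0.38, while Wnt11 (1.16 ± 0.34) was not called. Of 29 BMP, TGF-beta and FGF ligands 12 lay at members and 8 of 10 tested were higher, with Bmp6 at 3.65 ± 0.61, Fgf15 at 3.34 ± 0.59 and Fgf8 at 1.78 ± 0.63, while Fgf3 (1.13 ± 0.36) was not. In RING1B WT cells 1 Gata or T-box gene, 3 homeobox genes and 1 Wnt gene of these lists were called higher. In Eed fl/fl cells none was called in any list. The median log2 fold change in RING1B WT cells ran from 0.0153 (proneural bHLH) to 3.37 (Hox) over these lists.

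Polycomb genes lay at members and at other RING1B loci. Of 35 PRC1 genes, 4 lay at members, among them Cbx8, Pcgf5 and Bmi1, and 8 at other loci. That is close to the split of 1392 and 2504 over all genes. Cbx8, a chromodomain subunit of canonical PRC1, had 1.47 and 0.865 CPM in untreated Parental cells and 26.2 and 31.1 with OHT (4.55 ± 0.45, adjusted p = 4.21e-07). Pcgf5, the subunit of PRC1.5, had 6.19 and 7.17 against 25.5 and 25.3 CPM (1.93 ± 0.27). The JARID2 score at Pcgf5 was 10.3, as at Gata4 and Zic2, near the lower limit of the list. None of these loci had a JARID2 peak in RING1B I53S cells with OHT. Bmi1, also PCGF4, had 1.87 and 3.96 against 7.77 and 6.82 CPM (1.36 ± 0.41, adjusted p = 0.0138), below the fold threshold. Of 12 PRC2 genes none lay at a member and Phf19 at another RING1B locus. Of 19 germline and meiosis genes none lay at a member either, while 11 lay at other loci (Dazl, Ddx4, Mael, Stk31, Tdrkh, Tdrd1, Sycp1, Sycp2, Stag3, Smc1b and Hormad1).

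The 4 genes lower with OHT in Parental cells were Socs2, Notum, Zic2 and 2610035F20Rik. Socs2, a suppressor of cytokine signalling, had 60.9 and 57.2 CPM without and 20.9 and 17.5 with OHT in Parental cells, 40.2 and 51.7 against 21.3 and 20.3 in RING1B I53S cells, 74.97 and 89.7 against 40.4 and 40.97 in RING1B WT cells and 139 and 131 against 89.7 and 79.7 in Eed fl/fl cells. Its groups did not overlap in any line, and the log2 fold changes were −1.62 ± 0.20 (adjusted p = 6.02e-06), −1.14 ± 0.20, −1.02 ± 0.20 and −0.67 ± 0.25, only the first of which was called. Without replicate 2 of the OHT group the Parental value was −1.50, just short of the threshold. Notum, a Wnt deacylase, had 15.3 and 21.02 against 4.18 and 3.61 CPM in Parental cells (−2.21 ± 0.30). Zic2, a neural zinc finger factor, had 23.5 and 30.5 against 4.44 and 8.19 there (−2.10 ± 0.29). In RING1B WT cells Zic2 had 20.2 and 20.1 against 10.4 and 9.84 CPM (−0.99 ± 0.28). In RING1B I53S cells it had 6.88 and 6.43 against 3.71 and 3.01 (−0.99 ± 0.32), and neither change was called. In Eed fl/fl cells it changed by 0.19 ± 0.25. 2610035F20Rik lies beside Zic2 on the opposite strand and at the same RING1B locus. Its change was −2.46 ± 0.57, and since reads were counted without strand, antisense reads from Zic2 transcription cannot be told apart there.

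Markers of cell identity moved in the same libraries. The summed level of 17 pluripotency genes, 1 of them at a member, was 7987 and 9198 CPM in untreated Parental cells and 4666 and 4688 with OHT, against 7387 and 7479 in RING1B WT cells with OHT. The 12 trophoblast genes, 4 at members and all 4 called higher, went from 192 and 226 to 759 and 781 CPM, the 10 primitive endoderm genes, 5 at members, from 514 and 673 to 1114 and 1143, and the 10 fibroblast genes from 27.8 and 28.3 to 89.1 and 96.1, with 3 of the 10 at 0 in Parental cells with OHT. In RING1B WT cells with OHT, trophoblast genes rose as well, from 175 and 191 to 283 and 293 CPM. Primitive endoderm genes went there from 632 and 714 to 881 and 928, and fibroblast genes from 19.2 and 26.5 to 40.1 and 40.8. In Eed fl/fl cells the trophoblast sum went from 241 and 281 to 353 and 455, whereas the primitive endoderm values overlapped. The 9 neural markers, 3 at members, lay in Parental cells at 87.0 and 124 CPM without and 97.5 and 109 with OHT. The 2 at members with enough reads were both called higher. The part of these cell states in the rise of the genes at members was not tested, and in bulk samples more cells of a kind and more RNA per cell cannot be told apart.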

How the data were processed

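ChIP-seq and RNA-seq files of Parental, RING1B WT, RING1B I53S, MTF2 KO and Eed fl/fl mouse ESCs were used. The authors aligned ChIP reads to mm10 with Bowtie 1.2.2, removed duplicates and called peaks per library with MACS2 2.1.1 against input, and the deposited score is the −log10 of the p-value. The deposited RNA counts are whole reads per gene name, which the authors obtained by STAR 2.7 alignment, duplicate removal with samblaster and unstranded featureCounts on the GENCODE M21 annotation. The authors' comparison tables were not used.

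Peak overlaps of at least 1 bp were computed in Python 3.11.15, with 95% Wilson intervals for shares and Newcombe intervals for differences. Sequences were read from GRCm38 with pysam 0.24.0. The count model was edgeR 4.0.16 under R 4.3.3 (TMM, filterByExpr, quasi-likelihood test, Benjamini-Hochberg), the 12 libraries of the RING1B lines in one fit of 18154 of 55341 genes and the 4 Eed fl/fl libraries apart with 25170. A call needed a log2 fold change of 1.5 or more in size and an FDR under 0.05. CPM are TMM-normalised, SE is the log2 fold change divided by the root of F, and CPM per kb uses merged exons of GENCODE M21. Totals were 6957248 to 12743460 counts, and no 2 replicates agreed within sampling noise. Whether same-numbered replicates pair was checked by correlating their deviations: 0.101 in Parental, 0.0627 in RING1B WT, 0.198 in RING1B I53S and 0.459 in Eed fl/fl, and across lines 0.228 to 0.301 without and 0.134 to 0.181 with OHT. Nothing in the labels says that a number marks a shared clone or day, and 2 numbers per group are too few to settle it, so the block was kept as an alternative.

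Named loci are the 10 with the highest JARID2 score in Parental cells at 72 h and the 5 with the highest lowest score over 4 libraries, each also with the 11 loci set apart left out. Named genes are up to 10 higher and up to 5 lower with the lowest FDR in Parental cells (4 were lower), up to 3 in each direction in Eed fl/fl cells (none was called), Polycomb genes at members, up to 4 genes of each list with the highest mean CPM in Parental cells with OHT, and Rnf2, Ring1 and Eed as checks. Some genes that this rule names are not reported here. Members, bands, lists and tests were chosen with earlier results of these data known. The scripts were tested on simulated data. Alternatives were DESeq2 1.42.0, RLE, other filters, thresholds, windows and overlaps, a replicate block and each replicate left out. Those on RING1B score, on untreated JARID2 and on the loci set apart were chosen after seeing the data.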

Additional observations from a re-analysis of the deposited data

Results flagged for a closer look

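The OHT effect differed between Parental and RING1B WT cells at 14 of the 57 named genes, in edgeR's test of the difference itself. Each time the larger effect was in Parental cells. Apart from Rnf2, Ring1 and Eed, the named genes were drawn from those at members, so this count says nothing about other loci. Of all 875 tested genes at members, 63 were called higher and 0 lower in that test, against 1.1% and 0.435% of all tested genes. Many of the 14 were named for their low FDR in Parental cells, measured on the same libraries. The difference of the log2 fold changes, Parental minus RING1B WT, was 4.57 at Gata3 (adjusted p = 0.000106), 3.54 at Ccnd2, 3.69 at Nsg1, 6.36 at Pax9, 4.27 at Hand1, 4.28 at Ecel1, 3.89 at Nkx2-9, 2.58 at Adra2b, 2.98 at Cbx8, 2.48 at Fzd2, 5.50 at Sox9, 2.91 at Kcns1, 4.61 at Pitx1 and 7.61 at Sox7 (adjusted p = 0.0417, the highest of the 14). Sox7 had no read in untreated Parental cells, so its value depends on the prior count.

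One RYBP library, whose labels do not say clearly whether OHT was given, entered no comparison. Its peaks covered 1.41% of the members (17 loci) and 0.219% of the other RING1B loci, while input libraries covered 0.332% to 0.580% of the members.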

How the results depend on the processing

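Differences are given in percentage points, members minus other loci, in Parental cells at 72 h of OHT unless stated, and beside the values in the report. Of the results with a planned or added alternative, 105 values stayed close to the main one, 60 moved and 4 changed sign, and the cause was not tested. With a JARID2 score of at least 20 there were 438 members; the differences then were 69.0 and 54.5 for JARID2 in RING1B I53S libraries 1 and 2, 21.2 for MTF2, 23.2 for SUZ12, 34.7 for H3K27me3 and 28.4 for H2AK119ub1, and 229 genes at members were higher and 0 lower in Parental, 224 and 1 in RING1B I53S and 15 higher in RING1B WT cells. When a peak had to cover 50% of the locus, they were 32.5 and 9.47 for JARID2 in the RING1B I53S libraries, 32.0 for MTF2, 52.97 for EPOP, 33.6 for SUZ12 and 46.4 for H3K27me3. Counting only peaks that scored at least 20, they were 27.3 and 6.14 for JARID2, 49.98 for MTF2, 43.2 for EPOP, 50.3 for SUZ12, 49.0 for H3K27me3 and 0.232 for RING1B, whose sign changed. At loci of 1500 bp or more, they were 36.6 for JARID2 in library 2, 13.5 for MTF2, 46.9 for EPOP, 15.9 for SUZ12, 22.9 for H3K27me3 and 12.2 for H2AK119ub1. At loci with JARID2 in untreated cells, they were 16.1 for MTF2, 52.8 for EPOP, 18.7 for SUZ12, 32.3 for H3K27me3, 15.5 for H2AK119ub1 and 0.436 for RING1B. At RING1B scores of at least 60, they were 31.4 and 43.9 for JARID2, 1.72 for MTF2, 36.5 for EPOP, 0.0 for AEBP2, 0.467 for SUZ12, 6.87 for H3K27me3, 3.45 for H2AK119ub1 and 0.137 for RING1B. Without the loci set apart AEBP2 was at −0.0366.

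For genes at members, an FDR limit without a fold limit gave 14 lower in Parental, 10 in RING1B I53S and 3 in RING1B WT cells. Without a filter on low counts RING1B WT had 90 higher and 1 lower, and fitted alone 27 higher. DESeq2 called 1 gene lower in Eed fl/fl cells. The replicate block gave 615 higher and 4 lower genes in Parental, 586 and 2 in RING1B I53S, 50 and 0 in RING1B WT and 5 and 1 in Eed fl/fl cells; the shared numbers were not taken as a pairing. Leaving out one replicate at a time gave 496 to 539 higher and 3 to 5 lower in Parental, 421 to 539 and 0 to 2 in RING1B I53S, 4 to 47 and 0 to 0 in RING1B WT, and 0 to 38 and 0 to 1 in Eed fl/fl cells, where the 38 came without replicate 2 of the untreated group. An arm left with 1 library is assumed to vary like the other groups. Among 140 values of named genes under alternatives, 139 kept direction and call, and Socs2 without Parental OHT replicate 2 did not. Peak lists hold no depth, so a share near the lower limit of a list cannot be told apart from a shallow library.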
